A study of Mus musculus with 8 samples.

Results

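Tuft cell genes were described in the inflamed colon of mice with and without Trim58. The 9 genes Dclk1, Trpm5, Pou2f3, Avil, Il25, Sh2d6, Alox5, Gfi1b and Il17rb were taken from the 22180 genes tested. For each, the probe set annotated to that symbol alone was used, and Alox5, which had 2, was read from the one with the higher mean. The series compared the middle colon of 4 Trim58-/- (KO) and 4 Trim58+/+ (WT) mice of the strain C57BL/6-Trim58tm2313Arte. Trim58 encodes a tripartite motif protein that attaches ubiquitin to others, and the design text describes its complete loss from the whole animal. All 8 mice were female, 9 weeks old and free of specific pathogens, and each gave 1 whole-transcript array. Every one of them had drunk dextran sulfate sodium (DSS) at 4%, a sugar polymer toxic to the colon lining, for 7 days and then plain water for 5 days before the tissue was taken on day 12. No colon without colitis was measured. Markers of colonic epithelium were bright in every array, such as the colonocyte peptide gene Guca2a at 11.14 to 12.00 in KO arrays and 11.16 to 12.16 in WT arrays (log2 signal).

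Tuft cells are rare chemosensory cells of the gut epithelium. The transcription factor Pou2f3 is needed to form them, and they sense luminal signals through a taste-like cascade that opens the cation channel Trpm5. When activated they release interleukin-25, encoded by Il25, and cysteinyl leukotrienes, whose synthesis starts with the lipoxygenase Alox5. Both act on group 2 innate lymphoid cells (ILC2), which carry the interleukin-25 receptor chain Il17rb and answer with interleukin-13. Interleukin-13 in turn favours tuft and goblet cells among the new epithelial cells.

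Values are robust multi-array average (RMA) signals on the log2 scale as deposited, so a step of 1 is a doubling of signal. Trim58 itself read 4.91, 5.37, 4.82 and 5.11 in KO replicates 1 to 4, against 5.22, 5.07, 5.18 and 5.03 in WT replicates 1 to 4 (limma adjusted p = 0.839), so its probe set does not check the labels. Pancreatic enzyme RNA set 3 of the KO arrays apart. The mean of 11 pancreatic acinar genes lay between 6.22 and 12.18 in KO arrays, with 6.22 in KO replicate 3 alone, and between 6.44 and 6.60 in WT arrays. Differences that separated the genotypes in the members and in the genes called from other lists are therefore also given for KO replicate 3 alone against the WT arrays. Because tissue was measured in bulk, fewer tuft cells and less RNA per tuft cell cannot be told apart.

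None of the 9 tuft cell genes passed the test between genotypes. The count was 0 of 9 at a limma adjusted p under 0.05, where 0.577% of all 22180 genes passed (0.392% higher and 0.185% lower in KO), and 2 of 9 at an unadjusted p under 0.05, where 14.3% of all genes did (6.22% higher and 8.1% lower). Dclk1 had a higher signal in all KO arrays than in any WT array, at a ratio of means of 1.22, and Il17rb a lower one, at 0.798. Groups did not overlap in these 2 of 9 genes, against 8.81% of all genes (3.79% higher and 5.02% lower in KO). The differences lay above 0 for 4 members and below 0 for 5, with a median of -0.07 (log2), beside -0.01 over all genes. For 8 of the 9 members the 95% interval of the difference stayed within 1.5-fold in either direction, and Pou2f3 was the exception. These intervals are of bulk signal, which RMA compresses in dim probe sets, and do not bound the change in RNA of tuft cells.

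The 2 genes whose groups did not overlap are shown with the 250 bases before their annotated starts, from RefSeq on GRCm38.p6, as these are the members for which the genotypes separated. Capitals mark matches to TGANTCA, where N is any base. This is a loose form of the motif of the AP-1 factors that act in inflamed tissue. Dclk1 has an upstream start and an internal start, both on the plus strand (chr3:55242114-55242363 and chr3:55461478-55461727). Il17rb lies on the minus strand (chr14:30008897-30009146).
Dclk1 upstream start: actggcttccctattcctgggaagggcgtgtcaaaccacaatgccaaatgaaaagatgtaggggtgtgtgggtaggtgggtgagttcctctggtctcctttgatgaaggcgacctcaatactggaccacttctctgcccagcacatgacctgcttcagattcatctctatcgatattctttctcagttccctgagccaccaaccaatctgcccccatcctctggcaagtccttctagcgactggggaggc
Dclk1 internal start: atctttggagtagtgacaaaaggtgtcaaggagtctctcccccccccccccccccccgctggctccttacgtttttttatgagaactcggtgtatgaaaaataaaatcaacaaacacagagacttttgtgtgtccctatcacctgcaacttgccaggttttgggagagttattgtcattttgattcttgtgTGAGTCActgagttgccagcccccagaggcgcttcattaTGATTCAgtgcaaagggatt
Il17rb: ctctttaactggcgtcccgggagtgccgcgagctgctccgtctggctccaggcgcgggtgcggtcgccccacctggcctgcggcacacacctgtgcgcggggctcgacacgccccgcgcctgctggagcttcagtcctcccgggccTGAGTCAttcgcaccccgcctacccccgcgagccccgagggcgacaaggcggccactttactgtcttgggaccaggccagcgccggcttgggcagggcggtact

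The internal Dclk1 window held 2 matches to TGANTCA, which read TGAGTCA and TGATTCA. The pattern reads the same on both strands. The Il17rb window held 1 match, TGAGTCA, which began 104 bases before the start. The upstream Dclk1 window and those of the 5 other members with an entry held none, so that 2 of 8 member windows had a match. This motif was chosen after the sequences were read, and 6.75% of all 32851 windows of this length hold it. The octamer ATGCAAAT, the textbook site of the POU family to which Pou2f3 belongs, was searched on both strands and was in none of the 8 windows of the 7 members with an entry, against 1.60% of all windows. Gfi1b, Sh2d6, Alox5, Trpm5 and Avil were the other members with an entry. G and C made up 72.0% of the Il17rb window, 52.4% of the upstream and 46.8% of the internal Dclk1 window. No source used here says on which start the single Dclk1 probe set reports.

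Pou2f3, the factor that specifies tuft cells, varied more within a genotype than any other of the 9 genes (within-group SD 0.33). It read 3.69, 3.50, 3.51 and 3.61 in KO replicates 1 to 4, against 3.60, 4.57, 3.60 and 3.86 in WT replicates 1 to 4. The KO arrays were close together, and WT replicate 2 stood well above the rest. The log2 difference was -0.33 ± 0.19 (SE), with a 95% interval of -0.75 to 0.09 (limma adjusted p = 0.481). Without WT replicate 2 it was -0.11. Its mean exceeded that of 63.1% of 1105 olfactory receptor genes, which colon is not known to use, and RMA compresses differences near background. The other 8 members exceeded between 91.9% and 99.8% of that class. The dimmest of these, Il17rb and Sh2d6, exceeded 30.3% and 30.5% of all genes. Probe sets differ in brightness at equal RNA, which makes this a rough guide.

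Gfi1b, a zinc finger repressor found in tuft cells and best known from megakaryocytes and red cell precursors, did not separate the genotypes. It read 5.91, 6.09, 6.33 and 5.96 in KO replicates 1 to 4, against 6.07, 6.04, 6.34 and 6.13 in WT replicates 1 to 4. Replicate 3 of each genotype was its highest array. KO minus WT was -0.07 ± 0.11 (log2, SE; limma adjusted p = 0.826). Of 7 measured megakaryocyte and erythroid markers, 0 passed at an adjusted or unadjusted limma p under 0.05. Their mean signal was 5.31 to 5.53 in KO arrays and 5.35 to 5.56 in WT arrays. Klf1 and Pf4, the markers with the smallest p, had log2 differences of 0.09 and -0.26, and Ppbp, with the largest, of -0.01.

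Other factors of tuft and secretory cell fate gave 0 of 10 past the adjusted threshold, with 2 higher and 3 lower at an unadjusted limma p under 0.05 and a median of -0.07. Atoh1, the master factor of secretory epithelial cells, read 9.63, 9.03, 9.65 and 9.18 in KO arrays, against 10.01, 10.11, 10.17 and 10.27 in WT arrays. All KO values were below all WT values, and the log2 difference of -0.77 ± 0.14 (SE) just missed the threshold (limma adjusted p = 0.0516). KO replicate 3 alone gave -0.49. Spib, an Ets factor of tuft cells, M cells and B cells, had a difference of 0.97 with overlapping groups (limma adjusted p = 0.125). Hmx3, a homeobox factor, lay at -0.00.

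Trpm5, the channel at the end of the taste cascade, was nearly equal in both genotypes. It read 6.17, 6.23, 6.24 and 6.09 in KO replicates 1 to 4, against 6.08, 6.01, 6.38 and 6.05 in WT replicates 1 to 4. WT replicate 3 was the highest array and the other 3 WT arrays were below every KO array. The log2 difference was 0.05 ± 0.09 (SE), and the 95% interval covers KO over WT ratios of 0.896 to 1.20 (limma adjusted p = 0.858). Of 11 other taste signalling genes, 0 passed the adjusted test and 1 was higher at an unadjusted limma p under 0.05, with a median of 0.01. That gene was the taste receptor gene Tas1r1, at 0.18 (limma adjusted p = 0.329). Rgs13, a regulator of G protein signalling in tuft cells, had a log2 difference of -0.47 ± 0.23 (SE; limma adjusted p = 0.408), and of -0.22 without WT replicate 2. Its mean exceeded that of 64.1% of the olfactory receptor genes. The calcium channel gene Itpr3 lay at -0.00.

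**Figure D1:**
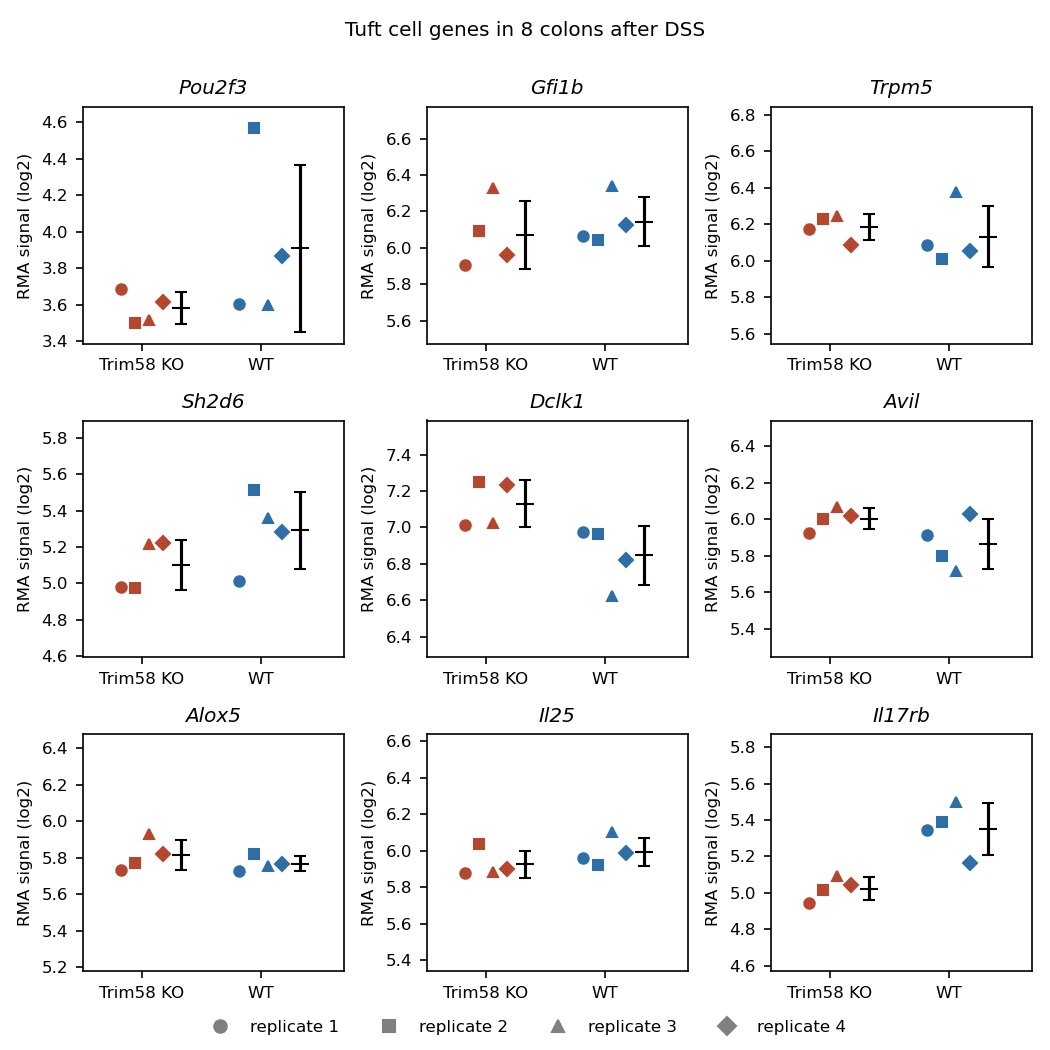
Signal of each tuft cell gene (RMA, log2, vertical axis; each panel spans the same range) in 4 KO and 4 WT arrays, with the mean and SD of each group as a bar beside the points. The groups separate for Dclk1, where KO arrays lie at 7.02 to 7.25 and WT arrays at 6.62 to 6.98, and for Il17rb, and overlap in the other 7 genes.

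Dclk1, a kinase bound to microtubules and the most used tuft cell marker of the mouse gut, was the member with the largest positive difference. It read 7.02, 7.25, 7.02 and 7.23 in KO replicates 1 to 4, against 6.98, 6.96, 6.62 and 6.82 in WT replicates 1 to 4. Every KO array was above every WT array, by a margin of 0.04 at the nearest pair, and WT replicate 3 was the lowest. The log2 difference was 0.28 ± 0.10 (SE), a KO over WT ratio of 1.22 with a 95% interval of 1.04 to 1.43. It did not pass over all genes (limma adjusted p = 0.233, unadjusted p = 0.0195). The exact two-sided permutation p was 0.0286, the smallest that 4 against 4 arrays can give. In KO replicate 3 alone the difference from WT was 0.18 (limma adjusted p = 1).

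Nerve cells also make Dclk1, and 7 of 9 measured markers of enteric neurons and glia had differences below 0. Of these 9 markers, 0 passed the adjusted test, 0 were higher and 3 were lower at an unadjusted limma p under 0.05, with a median of -0.11. Their mean signal was 5.99 to 6.28 in KO arrays and 6.16 to 6.55 in WT arrays. Snap25, of the vesicle fusion complex, had a log2 difference of -0.67 and the neuronal hydrolase gene Uchl1 one of -0.44, while the tubulin gene Tubb3 lay at 0.03. Their part in the Dclk1 signal was not tested.

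Avil, which encodes the actin-bundling protein advillin of tuft cell microvilli, pointed the same way as Dclk1 with overlapping groups. It read 5.93, 6.00, 6.07 and 6.02 in KO replicates 1 to 4, against 5.91, 5.80, 5.72 and 6.03 in WT replicates 1 to 4. The KO arrays were tightly grouped, and WT replicate 4 was the one WT array among them. KO minus WT was 0.14 ± 0.09 (log2, SE; limma adjusted p = 0.523).

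Sh2d6, an adaptor with an SH2 domain that marks tuft cells, pointed the other way. It read 4.98, 4.98, 5.22 and 5.22 in KO replicates 1 to 4, against 5.01, 5.51, 5.36 and 5.28 in WT replicates 1 to 4. WT replicates 2, 3 and 4 were above every KO array, and WT replicate 1 lay among the KO arrays. KO arrays averaged -0.19 ± 0.12 relative to WT (log2, SE; limma adjusted p = 0.507). The difference was -0.12 without WT replicate 2 and -0.29 without WT replicate 1 (limma unadjusted p = 0.0216).

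Of 24 further genes known as tuft cell markers, 0 passed the adjusted test, and 5 were higher and 2 lower at an unadjusted limma p under 0.05. Their median difference was 0.08. Vav1, an exchange factor of blood cells and tuft cells, had a log2 difference of 0.49 and Kctd12 one of 0.35 (limma adjusted p = 0.0924 and 0.114). Both showed no overlap between genotypes. Nebl, an actin-binding protein gene, lay at 0.02. The other genes of this list past the unadjusted threshold were named after their values were seen. Ptpn6, Plcg2 and Inpp5d had log2 differences of 0.54, 0.49 and 0.54 with overlapping groups. Snrnp25 and Espn had differences of -0.25 and -0.17, with all KO arrays below all WT arrays. The part of blood cells in the signals of this list was not tested.

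Alox5, the lipoxygenase that begins leukotriene synthesis in tuft cells and in myeloid cells, was level between genotypes on its brighter probe set. It read 5.73, 5.77, 5.93 and 5.82 in KO replicates 1 to 4, against 5.73, 5.82, 5.75 and 5.77 in WT replicates 1 to 4. KO replicate 3 was the highest array, and the groups overlapped. KO minus WT was 0.05 ± 0.07 (log2, SE; limma adjusted p = 0.836). The second probe set read 5.50, 6.02, 5.53 and 5.59 in KO arrays, against 5.28, 5.40, 5.28 and 5.54 in WT arrays. Its difference was 0.29 ± 0.12 (SE; limma unadjusted p = 0.0430, adjusted p = 0.342), so both probe sets stayed short of the adjusted threshold and differed in size.

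Leukotriene, prostaglandin and acetylcholine synthesis genes outside the 9 gave 1 of 9 measured past the adjusted test, higher in KO, with a median of 0.04. The gene was Ptgs2, the inducible cyclooxygenase, at a log2 difference of 1.94 (limma adjusted p = 0.00459); KO replicate 3 alone gave 2.18. Alox5ap, the protein that hands arachidonic acid to Alox5, read 8.13, 8.92, 8.19 and 7.89 in KO arrays, against 7.39, 6.99, 6.89 and 7.79 in WT arrays. All KO values lay above all WT values, with a difference of 1.02 ± 0.24 (SE; limma adjusted p = 0.0951). Hpgds, which makes prostaglandin D2, lay at -0.01, and the leukotriene C4 synthase gene Ltc4s, named after its value was seen, at 0.03.

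Neutrophils and macrophages also express Alox5 and Alox5ap. Of 10 neutrophil markers, 8 passed the adjusted limma test, all higher in KO (S100a9, S100a8, Cxcr2, Csf3r, Il1r2, Mmp9, Retnlg and Clec4d, with log2 differences of 1.27 to 3.20). In KO replicate 3 alone these 8 differed from WT by 1.23 to 3.45. When single arrays were left out, S100a9, S100a8, Cxcr2 and Csf3r passed in all 8 fits, Il1r2 in 7, Mmp9 in 6, and Retnlg and Clec4d in 5. Ly6g lay at -0.36 and did not pass (limma adjusted p = 0.621). The mean of the list was 7.72 to 8.54 in KO arrays and 5.82 to 6.48 in WT arrays. Of 10 macrophage markers, 0 passed the adjusted test and 3 were higher at an unadjusted limma p under 0.05, with means of 8.76 to 9.15 in KO arrays and 8.21 to 9.16 in WT arrays. Fcgr1 and Lyz2 had log2 differences of 0.70 and 0.42, and Adgre1 lay at 0.03. The part of these cells in the Alox5, Alox5ap and Ptgs2 signals was not tested.

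Mast cells make leukotrienes as well. Of 10 mast cell markers, 1 passed the adjusted limma test, the histamine synthesis gene Hdc, at a log2 difference of 1.78 (limma adjusted p = 0.00459); KO replicate 3 alone gave 2.13. Kit, the stem cell factor receptor, had a difference of -0.34 and the tryptase gene Tpsb2 one of 0.01. The mean of the list was 4.92 to 5.33 in KO arrays and 4.77 to 5.19 in WT arrays. Its median difference was 0.10, with 7 markers above 0 and 3 below. The part of other cells in the Hdc signal was not tested.

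Il25, the cytokine by which tuft cells call on ILC2, did not separate the genotypes. It read 5.88, 6.04, 5.88 and 5.90 in KO replicates 1 to 4, against 5.96, 5.92, 6.10 and 5.99 in WT replicates 1 to 4. Apart from KO replicate 2, the KO arrays were below every WT array. The log2 difference was -0.07 ± 0.08 (SE), and the 95% interval covers KO over WT ratios of 0.848 to 1.07 (limma adjusted p = 0.753).

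Il17rb, the receptor chain that binds interleukin-25, had the smallest p of the 9 genes. It read 4.94, 5.02, 5.09 and 5.04 in KO replicates 1 to 4, against 5.35, 5.39, 5.50 and 5.16 in WT replicates 1 to 4. Every KO array was below every WT array, and WT replicate 4 was the nearest to them. The log2 difference was -0.33 ± 0.09 (SE), with a 95% interval of -0.52 to -0.13, a 1.25-fold lower mean. It did not pass over all genes (limma adjusted p = 0.125, unadjusted p = 0.00372), and the exact two-sided permutation p was 0.0286. Of all genes, 8.41% differed by at least as much in either direction. The probe set was dim, with a mean above that of 30.3% of all genes. In KO replicate 3 alone the difference from WT was -0.26 (limma adjusted p = 0.984).

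**Figure D2:**
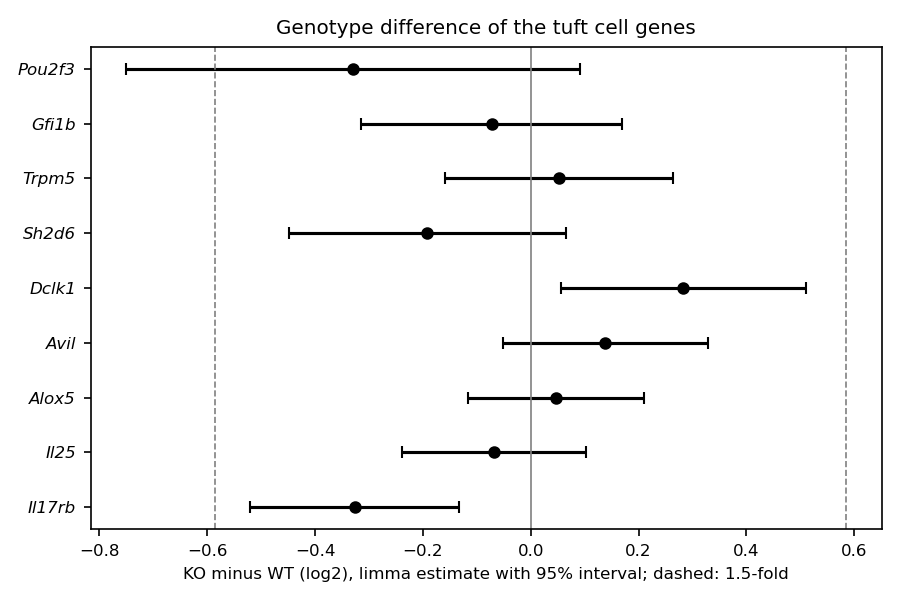
Log2 difference of KO minus WT for each tuft cell gene (points) with its 95% limma interval (bars), and 1.5-fold marked by dashed lines. The intervals of Dclk1 (0.06 to 0.51) and Il17rb (-0.52 to -0.13) leave out 0 before adjustment over all genes, and that of Pou2f3 alone passes 1.5-fold.

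The remaining genes of the type 2 circuit gave 1 of 19 past the adjusted test, with 5 higher and 2 lower at an unadjusted limma p under 0.05 and a median of 0.12. Il13ra2, the decoy receptor of interleukin-13, read 5.02, 4.91, 4.75 and 4.85 in KO arrays, against 4.03, 4.22, 4.08 and 4.03 in WT arrays. All KO values were higher, with a log2 difference of 0.79 ± 0.08 (SE, limma adjusted p = 0.00459). KO replicate 3 alone gave 0.66. The mean of Il13ra2 exceeded that of 80.2% of the olfactory receptor genes and 18.5% of all genes. Il33, an alarmin that also activates ILC2, read 7.88, 8.57, 7.39 and 8.10 in KO arrays, against 6.83, 6.58, 5.96 and 6.99 in WT arrays. Its KO over WT ratio of 2.63, with a 95% interval of 1.75 to 3.96, just missed the threshold, and the groups did not overlap (limma adjusted p = 0.0516). The log2 difference was 0.80 for KO replicate 3 alone. Il5, a cytokine of ILC2, lay at -0.00, and the cytokine genes Il13 and Il4, named after their values were seen, at -0.14 and 0.14.

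ILC2 are another source of Il17rb RNA. Of 6 measured ILC2 markers, 0 passed the adjusted test and 1 was higher at an unadjusted limma p under 0.05, with a median of 0.12. Their mean was 5.89 to 6.17 in KO arrays and 5.73 to 6.13 in WT arrays. The costimulator gene Icos had a log2 difference of 0.42, the lineage factor gene Gata3 one of 0.12 and the interleukin-7 receptor gene Il7r one of 0.22. T cells share all 3, and their part in the Il17rb signal was not tested.

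The other epithelial genes give the setting of these values. Of 12 epithelial markers, 0 passed the adjusted test and 2 were lower at an unadjusted limma p under 0.05, with a median of -0.12. Their mean was 10.31 to 10.45 in KO arrays and 10.40 to 10.52 in WT arrays. The claudin gene Cldn3 had a log2 difference of -0.38, the Ets factor gene Elf3 one of -0.24 and Vil1, of the brush border, one of -0.06. Whether these lists differ from the tuft cell genes was not tested.

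Of 10 enteroendocrine markers, 0 passed the adjusted test and 6 were lower at an unadjusted limma p under 0.05, with a median of -0.53. The hormone gene Insl5 had a log2 difference of -1.17 and the calcium sensor gene Scgn one of -0.56, both with no overlap (limma adjusted p = 0.0564 and 0.0638), and the hormone gene Sct lay at 0.05. Insl5 differed by -0.78 and Scgn by -0.62 for KO replicate 3 alone. Of 8 goblet cell markers, 0 passed the adjusted test and 3 were lower at the unadjusted one, with a median of -0.17. Tff3 and Clca1, secreted with mucus, had differences of -0.41 and -0.42, and the goblet factor gene Spdef lay at 0.00. Of 8 colonocyte markers, 2 passed the adjusted test, both lower in KO, with a median of -0.65. These were the carbonic anhydrase gene Car4 (-0.84) and the sugar phosphate transporter gene Slc37a2 (-1.81), while the peptide gene Guca2a lay at 0.02. In KO replicate 3 alone Car4 differed by -0.38 and Slc37a2 by -1.40. When single arrays were left out, Car4 passed in 1 of 8 fits, that without KO replicate 3, and Slc37a2 in 2.

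**Figure D3:**
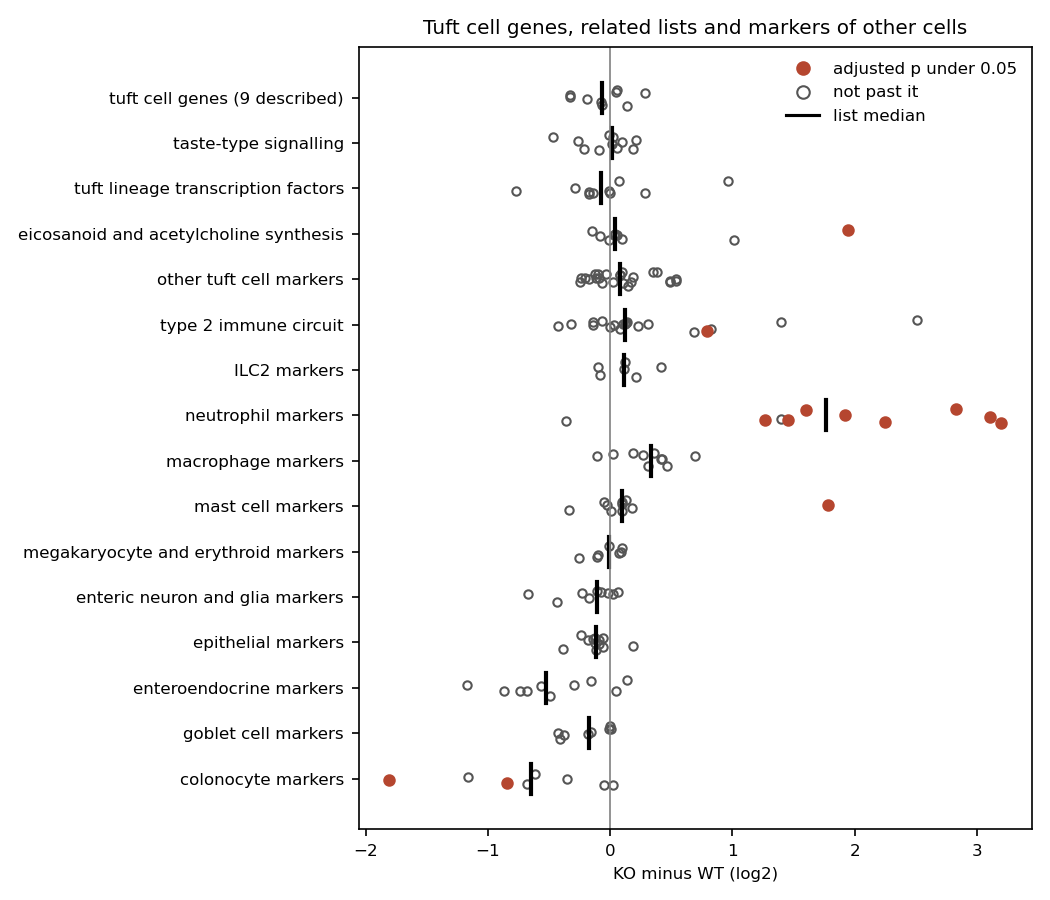
Log2 difference of KO minus WT (horizontal axis) for each gene of the tuft cell set, of related lists and of marker lists of other cells; filled points passed the adjusted limma test, open points did not, and bars are list medians. The 9 tuft cell genes lie between -0.33 and 0.28 with a median of -0.07, whereas the neutrophil median is 1.76 and the colonocyte median -0.65; the pancreatic list is left out.

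The pancreatic acinar list gave 0 of 11 past the adjusted test and 10 higher at an unadjusted limma p under 0.05. The trypsin gene Try4 and the lipase gene Cel had log2 differences of 4.35 and 5.47, and Sycn lay at 0.07. Of the 9 tuft cell genes, 0 had KO replicates 1, 2 and 4 all above every other array. In the other direction, Il17rb read 4.94, 5.02 and 5.04 in those arrays, below every other array. It was 5.09 in KO replicate 3 and 5.16 to 5.50 in WT arrays. The part of pancreatic tissue in the Il17rb signal was not tested.

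The tuft cell genes did not rise and fall together over the arrays. WT replicate 3 held the highest value of 4 members (Gfi1b, Trpm5, Il25 and Il17rb) and the lowest of 2 (Dclk1 and Avil). WT replicate 2 was highest in 2 (Pou2f3 and Sh2d6) and lowest in 1 (Trpm5). KO replicate 1 was lowest in 3 (Il25, Gfi1b and Il17rb). As a description over the same 8 arrays, 18 of the 36 pairs of members had a Pearson r above 0 and 18 below, with a median of -0.06. The extremes were -0.79 and 0.69. The median within-group SD of the members was 0.13, beside 0.15 over all genes.

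**Figure D4:**
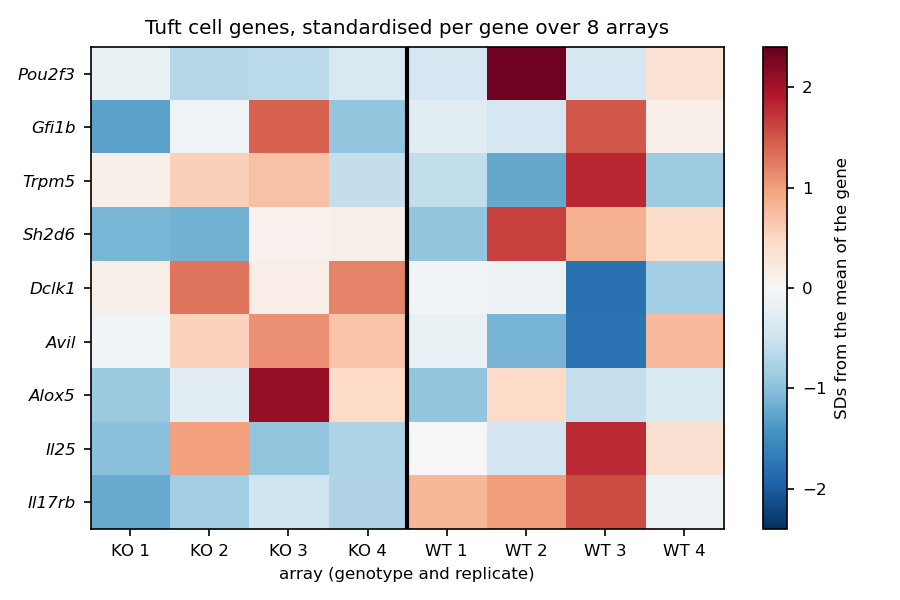
Each tuft cell gene (rows) in each array (columns, KO left of the line and WT right), as SDs from the gene's mean over 8 arrays. No column is uniformly high or low: in WT replicate 3 Trpm5, Il25, Gfi1b and Il17rb are at their highest while Dclk1 and Avil are at their lowest.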

How the data were processed

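Total RNA of 8 middle colons was hybridised to 1 array per mouse. The deposited values are log2 signals, which the authors made by RMA in Affymetrix Expression Console 1.4, per the submitters' processing notes. RMA corrects background, brings arrays to 1 distribution and summarises probes. No source used here gives filters, scan batches or the genome build. Array medians lay between 5.73 and 5.83. The number of arrays limits the precision.

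Of 41345 probe sets, 23521 had 1 symbol, 1814 several and 16010 none. Symbols were updated by Entrez identifier (23328 found). The probe set with the highest mean was kept per gene, which left 22180 genes with no filter on dim ones. KO and WT were fitted with genotype as the single term (limma 3.58.1 under R 4.3.3, lmFit and eBayes), and p-values were Benjamini-Hochberg adjusted over all genes, with 0.05 as the threshold. Exact permutation used the 70 assignments of 4 of 8 arrays.

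The members and lists were chosen with earlier results of these data known. Named beside the members were called genes of each list, its 2 smallest and 1 largest p, and the 5 genes most and 5 least like the mean of the standardised members. Any other was named after its value was seen. No pairing of arrays by replicate number was named or seen. The fit was tested on simulated data. Alternatives were a variance trend, array weights, 2 normalizations, a low-signal filter, other probe set rules, a replicate block, marker list covariates and leaving out each array.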

Additional observations from a re-analysis of the deposited data

Results flagged for a closer look

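Values that stood apart from the other 3 arrays of their genotype were looked for in 54 groups of 4, and 5 were found. Chance alone flags about 1 in 20 such groups. Il25 was 6.04 in KO replicate 2, against 5.88 to 5.90 in the other KO arrays. The second Alox5 probe set was 6.02 in the same array, against 5.50 to 5.59 in the others. The mean of the enteroendocrine markers was 7.28 in that array too, against 7.77 to 7.86. The mean of the epithelial markers was 10.40 in WT replicate 1, against 10.51 to 10.52 in the other WT arrays. The mean of the pancreatic acinar markers was 6.22 in KO replicate 3, against 11.27 to 12.18 in the other KO arrays.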

How the results depend on the processing

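None of the 9 tuft cell genes passed the adjusted limma threshold under any of 20 alternatives, and the lowest adjusted p was 0.0700, for Il17rb with array weights. At an unadjusted limma p under 0.05 the count of members was 2, with 1 to 3 when single arrays were left out (1 without KO replicate 2, KO replicate 4 or WT replicate 3, and 3 without WT replicate 1, which added Sh2d6, or WT replicate 4, which added Avil), 1 after the low-signal filter, which dropped Pou2f3, Sh2d6 and Il17rb, and 0 with each of the 3 marker covariates and with KO replicate 3 as the only KO array. Il17rb was -0.30, -0.27 and -0.12 with the epithelial, pancreatic and neutrophil covariates, and Dclk1 was 0.11 and 0.17 with the epithelial and pancreatic ones. The epithelial and pancreatic covariates partly follow genotype. The pancreatic mean was 11.27 to 12.18 in KO replicates 1, 2 and 4 and 6.44 to 6.60 in WT arrays. The epithelial mean was 10.31 to 10.45 in KO arrays and 10.40 to 10.52 in WT arrays. Fits with these covariates therefore cannot tell genotype from tissue content. The setting with KO replicate 3 alone was added after the data were seen, and its lone array is assumed to vary like the WT arrays. Fits that leave out single arrays gave 0.01 to 0.14 for Trpm5, 0.09 to 0.19 for Avil, -0.11 to -0.03 for Il25, 0.00838 to 0.0739 for Alox5 and -0.16 to -0.00781 for Gfi1b. For genes of the other lists, leaving out arrays was added after the data were seen. Of 177 member values under alternatives, 169 kept their direction. The variance trend, the low-signal filter and the replicate block left each difference they fitted unchanged by construction. So did the other probe set rules for members with 1 probe set. The direction of those values could not turn. With the epithelial covariate Sh2d6 turned to 0.0354 and Gfi1b to 0.13. With the pancreatic one Gfi1b turned to 0.14, and with KO replicate 3 alone to 0.18. With the neutrophil covariate, whose values do not overlap between genotypes, Dclk1 turned to -0.10, Pou2f3 to 0.0479, Avil to -0.21 and Sh2d6 to 0.31, none past the threshold. The cause of these turns was not tested. Over all genes 128 were called, with 25 (without WT replicate 2) to 252 (without KO replicate 3) when single arrays were left out, 199 with array weights, 203 after the low-signal filter, 14 with KO replicate 3 alone, and 2, 3 and 0 with the epithelial, pancreatic and neutrophil covariates. With the replicate block 64 were called and 0 members. Same-numbered arrays deviated with correlations of -0.16 to 0.05, and no KO array matched the WT array of its own number best. No pairing by number was seen, though these correlations cannot exclude one. With 4 arrays a group, differences of the size seen in the members may go undetected.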

Other observations

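Pou2f3 was not alone in standing high in WT replicate 2, a pattern looked at after the values were seen. Rgs13, a G protein regulator of tuft cells, read 3.74, 3.28, 3.49 and 3.66 in KO replicates 1 to 4, against 3.48, 4.75, 3.74 and 4.08 in WT replicates 1 to 4. Of the 22179 other genes it had the profile most like that of Pou2f3 (Pearson r = 0.97, Spearman rho = 0.88 over 8 arrays, given as a description because it was picked as the extreme). Without WT replicates 2 and 4, the arrays farthest from the median of Pou2f3, r was 0.82. This is no independent check, because the remaining arrays also served to pick Rgs13. Both genes were dim, with means above 63.1% (Pou2f3) and 64.1% (Rgs13) of the olfactory receptor genes. Gnat3, the taste G protein gustducin, was also highest in WT replicate 2, at 4.95, with 4.16 to 4.63 in KO arrays and 4.30 to 4.66 in the other WT arrays. Its r with Pou2f3 was 0.80, or 0.54 without those 2 arrays. Sh2d6 shared that highest array at 5.51, but its r of 0.69 was -0.07 without those 2 arrays. Trpm5, which belongs to the same cascade, was lowest in WT replicate 2, at 6.01.

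Over the 8 arrays the mean of the standardised members was highest in KO replicate 3 (0.39 SDs) and WT replicate 3 (0.33) and lowest in KO replicate 1 (-0.60). The 5 genes most like it were Wdr64, Tspyl5, Scgb1b24, Prl7a1 and Ccdc42 (Pearson r of 0.92 each), and the 5 least like it were Ndc80, Exosc2, Cntfr, Mir344c and Ankrd6 (-0.96 to -0.94). These are the extremes of 18123 ranked genes, given as a description.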
